A study of Mus musculus with 8 samples.

Results

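Integrins are the receptors with which cells hold on to the extracellular matrix, and laminins are the chains that build the basement membrane under an epithelium. The 36 genes described here were all genes whose symbol in the array annotation was that of an integrin alpha or beta subunit (26 genes) or of a laminin alpha, beta or gamma chain (10 genes), out of 24583 genes measured. They were read by 92 of the 43941 named spots on the array, and each gene was represented by its brightest spot. The rule used names only and no measured value.

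The 8 arrays came from the left lobe of mouse lungs at E14.5 (embryonic day, counted from conception), taken 9 h after the pregnant female had received 1 intraperitoneal dose of doxycycline, 0.0015 mg per g. The 4 arrays labelled experimental were from Rosa26 rtTA/rtTA; Tg(tet(o)sFgfr2b)/+ embryos, which secrete a soluble Fgfr2b that captures the ligands of that receptor. The 4 arrays labelled control were from Rosa26 rtTA/rtTA; +/+ littermates, which carried the same ubiquitous transactivator, were exposed to the same doxycycline and lacked the soluble receptor. The transactivator is driven from Rosa26 in all cells and the receptor is secreted, so the model is not restricted to the epithelium, and each sample mixed all cells of the lobe. The labels numbered the arrays 1 to 4 in each group. Which litter or day each came from is not given in the sources used, and p-values measure only the spread between these samples.

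The labels could not be taken at face value. Etv5, a transcription factor of the Ets family that depends on Fgf10 at the epithelial tips, read 10.42, 10.43, 13.11 and 13.26 on the log2 scale in experimental 1 to 4, against 10.09, 10.57, 13.18 and 13.26 in control 1 to 4. Its level followed the number in the title and not the labelled group, and so did that of Etv4. Numbers 1 and 2 minus numbers 3 and 4 gave −2.83 for Etv5, −1.87 for Etv4 and −1.98 for Sox9, a distal epithelial factor. The paper gives these same log2 changes for its experimental against control lungs. Whether the titles give each array its true group was not tested, so the absence of calls between the labelled groups is no measure of the effect of the soluble receptor. Numbers 1 and 2 were therefore also set beside numbers 3 and 4. Because these numbers were joined with Etv5 known, that contrast is a description and carries no test. Xist, which is transcribed from the inactive X chromosome, lay between 7.45 and 8.21 in numbers 2 and 4 and between 2.98 and 3.63 in numbers 1 and 3 of both groups, so that both the labelled groups and the joined numbers held each sex equally.

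Integrins work as pairs of an alpha and a beta subunit. The alpha chains 3, 6 and 7 with beta 1, and alpha 6 also with beta 4, recognise laminin. Collagen is recognised by the alpha chains 1, 2, 10 and 11. The RGD motif of fibronectin, nephronectin and latent Tgfb is recognised by alpha 5, alpha 8 and the alpha v pairs. A laminin is a trimer of 1 alpha, 1 beta and 1 gamma chain. In the branching lung the epithelium lies on such a basement membrane, and mesenchymal Itga8 and epithelial Itga3 are both known for their part in forming the lung. Signals of different spots are not comparable as amounts, so levels are compared only between arrays for the same gene.

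Promoter sequence is shown for 3 integrin genes whose arrays numbered 1 and 2 did not overlap those numbered 3 and 4, 1 of them lower and 2 of them higher in numbers 1 and 2. The 250 bases upstream of the annotated start were taken from RefSeq (GRCm38.p6), and windows were used for 23 of the 36 genes. Lama3 is not among the 23, because its chromosome was left out for the subunits. Of the 26 windows of the 23 genes, 7 belong to a start over 1000 bases inside the gene, that of Itga9 among them, which is not shown. Letters in capitals mark an Ets core (CCGGAA, or TTCCGG on the other strand) or a GC box (GGGCGG, or CCGCCC on the other strand), and no match of one motif overlapped a match of the other.
Itga3, chr11:95076715-95076964, minus strand: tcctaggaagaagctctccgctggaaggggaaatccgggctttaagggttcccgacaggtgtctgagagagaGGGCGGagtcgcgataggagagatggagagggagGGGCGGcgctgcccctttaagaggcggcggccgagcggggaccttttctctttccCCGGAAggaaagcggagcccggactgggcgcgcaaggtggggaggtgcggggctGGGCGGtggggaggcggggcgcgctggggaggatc
Itga8, chr2:12301945-12302194, minus strand: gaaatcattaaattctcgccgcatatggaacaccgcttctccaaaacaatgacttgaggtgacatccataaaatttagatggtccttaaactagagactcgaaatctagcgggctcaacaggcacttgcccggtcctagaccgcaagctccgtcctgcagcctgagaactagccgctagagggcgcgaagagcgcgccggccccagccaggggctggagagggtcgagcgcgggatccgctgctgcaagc
Itgb5, chr16:33829415-33829664, plus strand: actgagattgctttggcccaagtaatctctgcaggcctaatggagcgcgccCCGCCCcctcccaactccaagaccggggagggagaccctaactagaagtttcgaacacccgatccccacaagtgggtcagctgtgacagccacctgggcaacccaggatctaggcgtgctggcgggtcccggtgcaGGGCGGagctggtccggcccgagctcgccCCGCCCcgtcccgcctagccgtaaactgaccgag
The Itga3 window held 1 Ets core and 3 GC boxes, and a second annotated start inside this gene had 1 GC box and no Ets core. The Itgb5 window held 3 GC boxes, and the Itga8 window held neither motif. Among the 26 windows of the 23 genes the Ets core occurred in 1, that of Itga3, while 12.0% of 32851 promoters of the same length contained it. No chromosome was left out of those 32851, whereas that of Lama3 was left out for the subunits. The shares therefore do not cover the same chromosomes, and Lama3 was not searched. A GC box was found for 8 of the 23 genes, and in 32.7% of all promoters. These are matches of letters and say nothing of a factor being bound.

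Between the labelled groups, 0 of the 36 genes passed the test. The fit compared experimental with control over all genes (limma, two-sided, Benjamini-Hochberg adjusted p under 0.05), and it called 0 of 24583 genes, or 0.0%. At an unadjusted p under 0.05 it called 876 genes (3.56%), among them 1 integrin, Itgal. With the number as a block it called 1182 genes (4.81%) at that p, and again 1 of the 36. By sign alone 24 of the 36 were higher in experimental arrays and 12 lower, with a median difference of 0.04 against 0.00 over all genes, and 30 lay within 0.25 of zero. With 4 arrays a group, the 95% confidence interval reached 0.22 to 1.11 to either side of the estimate for the 26 genes whose mean signal was above the median of all genes (5.79), and the intervals of these genes reached no lower than −1.06 and no higher than 1.17.

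**Figure D1:**
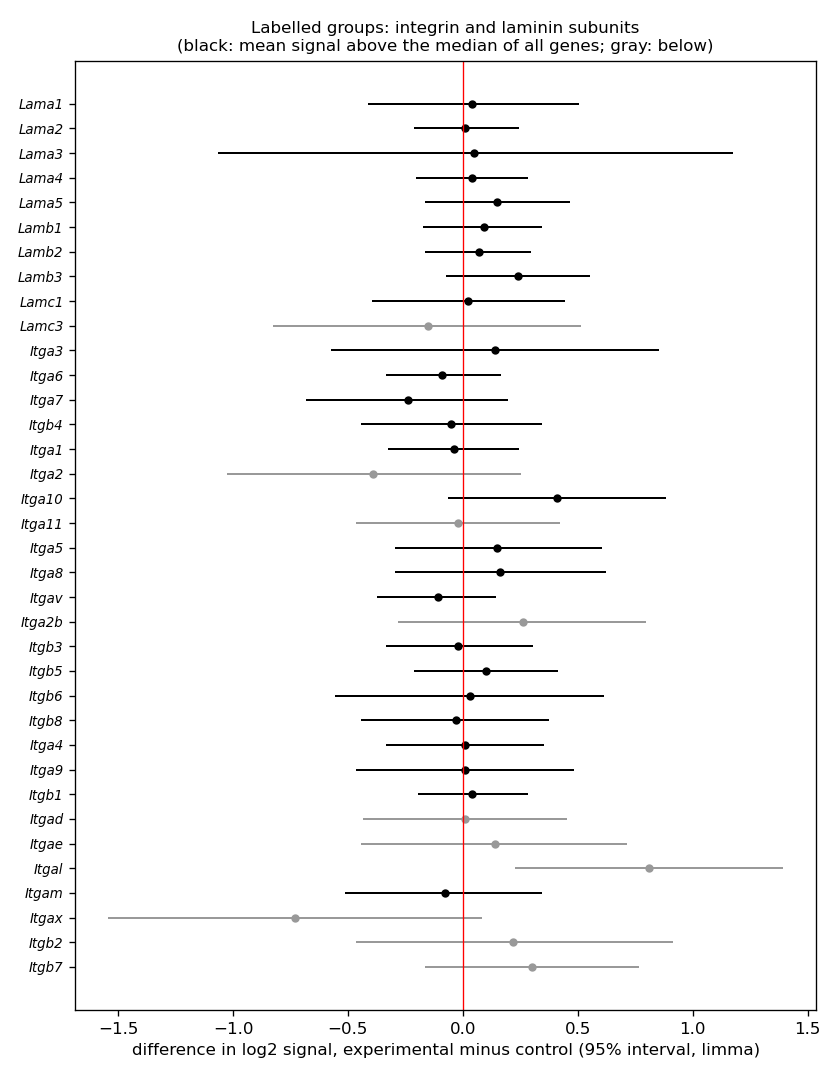
Difference in log2 signal between the arrays labelled experimental and control for the 36 subunits, ordered by role, with points for the estimate and bars for the 95% confidence interval from limma (n = 4 arrays each). Black marks the 26 genes above the median signal of all genes and gray the 10 below it, and the interval of Itgal (0.23 to 1.39) is the only one that leaves out zero.

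Among the laminins, 9 of 10 chains were nominally higher in the arrays labelled experimental, and none passed. Lamb3, the beta chain of the laminin of epithelial anchoring sites, had 10.34, 10.18, 10.02 and 9.91 in experimental 1 to 4, against 9.87, 9.97, 10.03 and 9.64 in control 1 to 4. The difference was 0.24 ± 0.13 (SE, limma adjusted p = 1.0), the groups overlapped, and it was −0.04 when all 3 spots of the gene were averaged. Its second spot, at a mean signal of 8.49, differed by 0.14, and the third, weak at 3.26, by −0.51. Lama5, the main alpha chain of the embryonic epithelial basement membrane, differed by 0.15 (interval −0.16 to 0.46). Lamb1 and Lamc1, the most widely used beta and gamma chains, differed by 0.09 (interval −0.17 to 0.34) and 0.02 (−0.39 to 0.44). Lamc3 was the 1 chain with a negative difference, −0.15 (interval −0.82 to 0.51), and its signal was below the median.

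Of the integrins, 15 were nominally higher and 11 lower. Itgal, the alpha chain of the leukocyte integrin LFA-1, was the only member whose labelled groups did not overlap, which 1.9% of all genes did. It had 5.26, 4.77, 5.58 and 4.93 in experimental 1 to 4, against 4.00, 3.90, 4.65 and 4.75 in control 1 to 4. The difference of 0.81 ± 0.25 (SE) had an unadjusted p of 0.0118 and a limma adjusted p of 1.0. This is a weak signal below the median of all genes, and the other spots of Itgal differed by −0.26 and −0.02, so that the mean of all its spots differed by 0.18.

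Itgax, a further leukocyte alpha chain, had 2.43, 3.20, 2.51 and 2.76 in experimental 1 to 4, against 4.54, 3.28, 2.95 and 3.05 in control 1 to 4. Control 1 stood above the other arrays, and the difference of −0.73 (interval −1.54 to 0.08) became −0.37 without it. Itga10, a collagen-binding chain of cartilage, had 6.42, 6.02, 6.36 and 6.64 in experimental 1 to 4, against 5.60, 5.77, 6.45 and 6.0 in control 1 to 4. Its difference was 0.41 (interval −0.06 to 0.88), with control 3 inside the range of the arrays labelled experimental.

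For Itgb1, the beta chain shared by most of these receptors, the mean was 13.08 ± 0.03 in the arrays labelled experimental and 13.03 ± 0.14 in those labelled control (SD, n = 4 each), a difference of 0.04 with an interval of −0.19 to 0.28. Itgav, the alpha chain of the Tgfb-activating pairs, differed by −0.11 (−0.37 to 0.14). Itga6, a laminin-binding alpha chain, differed by −0.09 (−0.33 to 0.16). Within same-numbered pairs of arrays, experimental minus control had 1 sign in all 4 pairs for 3 members, Itga8 and Itgal upward and Itgax downward, where 11.8% of all genes had 1 sign. For Itga8 these within-number differences were 0.34, 0.18, 0.01 and 0.13 for numbers 1 to 4.

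The subunits were next read by the number in the title. When the number was tested as a factor of 4 levels with the labelled group in the model (limma F test, adjusted over all genes), 7 of 24583 genes passed (0.0285%), among them Etv5 and the sex-linked Xist, Kdm5d and Eif2s3y, and 0 subunits did. With any 1 of the 8 arrays left out, 0 genes passed. The smallest adjusted p among the subunits was 0.381, that of Itga3, and 6 of them had an unadjusted p under 0.05, where 9.84% of all genes did. The 6 were Itga3, Itgad, Itga8, Itga9, Lama3 and Itgb6.

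For the joined numbers, 8 of the 36 subunits (22.2%) had all arrays numbered 1 and 2 on one side of all arrays numbered 3 and 4, where 10.6% of all genes did. Of the 36, 2 were lower and 6 higher in numbers 1 and 2, against 5.39% and 5.17% of all genes. All 8 were among the 26 above the median signal (30.8%), where the share over all genes above the median was 17.3%. Lama3 and Itga3 were the lower ones, a direction found in 8.88% of genes above the median, and Itga9, Itga8, Itgam, Itgb5, Itga1 and Lama4 the higher ones, a direction found in 8.45%. The median absolute difference was 0.19 for the 26 subunits and 0.13 for all genes above the median. Of the 10 subunits below the median signal, 0 separated the numbers. When the spots of each gene were averaged, 4 of the 36 separated them, Lama3, Itga8, Itga9 and Itgb5, all of which are among the 8. That is 11.1%, against 8.94% of all genes averaged the same way, a share near the background.

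**Figure D2:**
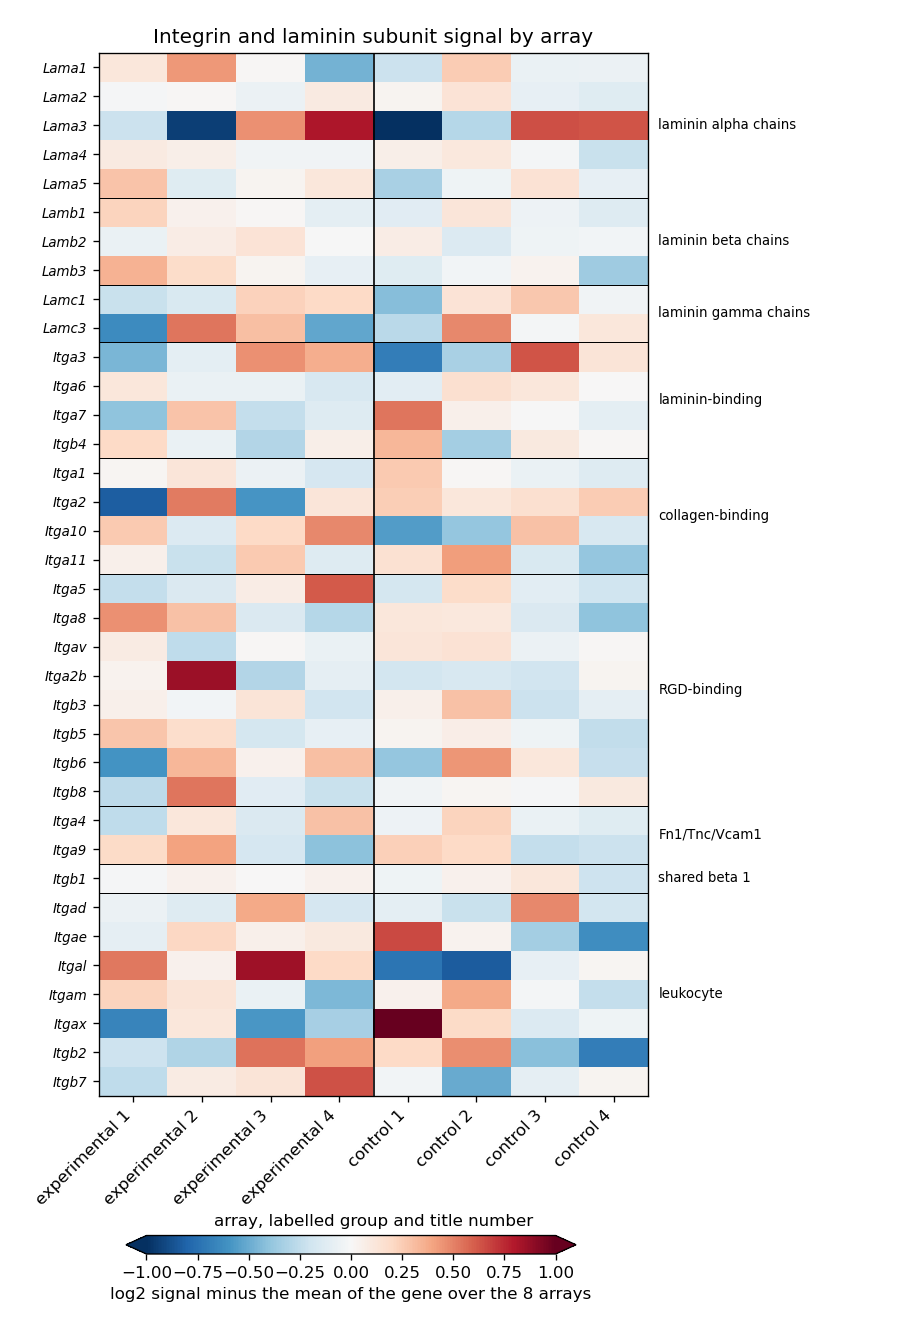
Log2 signal of each of the 36 subunits minus its own mean over the 8 arrays, in columns for experimental 1 to 4 and control 1 to 4, with rows grouped by role. Lama3 and Itga3 are blue in the columns numbered 1 and 2 and red in those numbered 3 and 4 of both labelled groups, and Itga8 and Itga9 run the other way.

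Both subunits that were lower in numbers 1 and 2 are known from epithelial anchorage. They are 2 of 36, a share near the 5.39% of all genes that were lower in this way. Itga3 overlapped when its spots were averaged. Lama3, the alpha chain of the laminin to which epithelial cells anchor, had 8.48 and 7.75 in experimental 1 and 2 and 7.60 and 8.41 in control 1 and 2, against 9.15 and 9.50 in experimental 3 and 4 and 9.34 and 9.32 in control 3 and 4. The highest array numbered 1 or 2 lay 0.67 below the lowest numbered 3 or 4, and the difference of means was −1.27, or 2.4-fold. A second, weaker spot of Lama3 was also separated, with a difference of −0.93. The labelled groups, in contrast, differed by 0.05 in this gene (interval −1.06 to 1.17).

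Itga3, the alpha chain that pairs with Itgb1 as a receptor for epithelial laminins, had 7.53 and 7.89 in experimental 1 and 2 and 7.29 and 7.66 in control 1 and 2, against 8.44 and 8.35 in experimental 3 and 4 and 8.61 and 8.11 in control 3 and 4. The difference was −0.79, or 1.72-fold, with a gap of 0.22 between the nearest arrays. Its second spot, at a mean signal of 3.71, differed by −0.38 and overlapped. Lama3 and Itga3 are named together because of their values, and chains that work beside them did not separate the numbers. Lamb3 differed by 0.19, Itgb1 by 0.01 and Itgb4 by 0.06, all overlapping.

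Of the separated subunits, Itga9 and Itga8 had the largest differences in the other direction. Itga8, the mesenchymal receptor for nephronectin, had 11.29 and 11.13 in experimental 1 and 2 and 10.95 and 10.94 in control 1 and 2, against 10.69 and 10.55 in experimental 3 and 4 and 10.69 and 10.43 in control 3 and 4. Its difference was 0.49, or 1.4-fold, and the weaker second spot gave 0.49 as well but overlapped between the numbers. Itga9, which binds tenascin C and Vcam1, had 11.13 and 11.34 in experimental 1 and 2 and 11.18 and 11.14 in control 1 and 2, against 10.77 and 10.53 in experimental 3 and 4 and 10.70 and 10.72 in control 3 and 4. The difference was 0.52 for its brightest spot and 0.59 for its other spot, and both spots were separated.

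**Figure D3:**
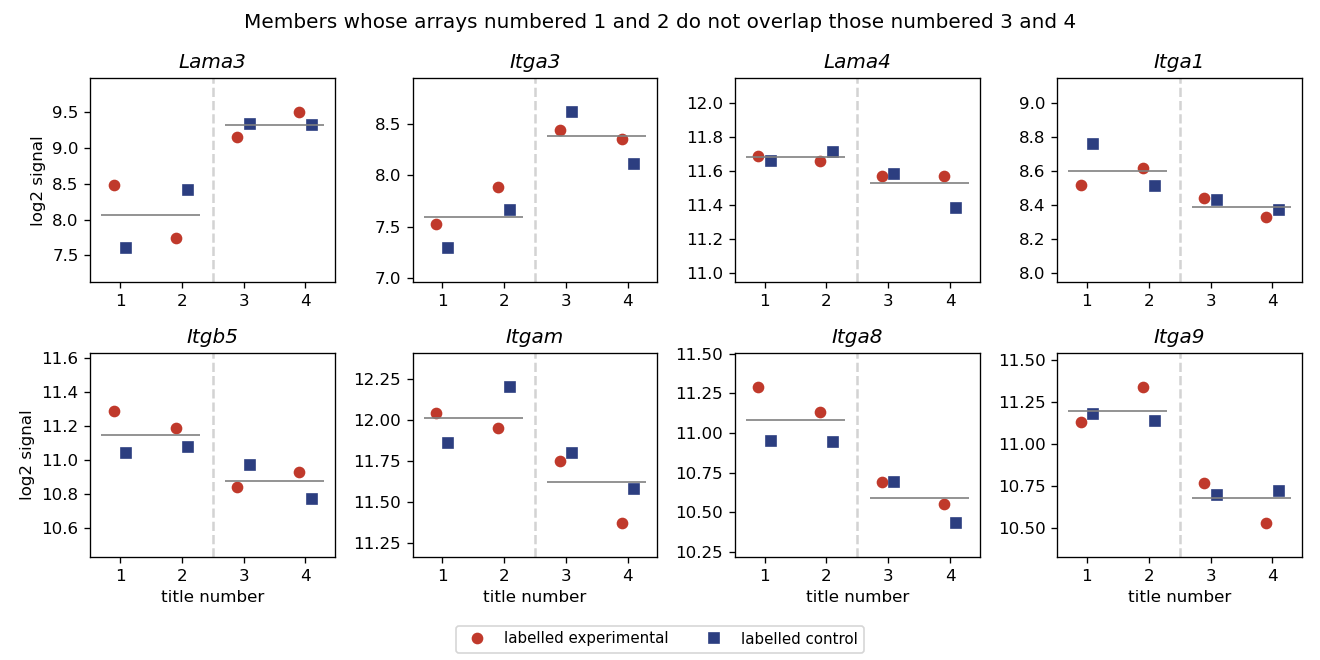
Log2 signal of the 8 subunits whose arrays numbered 1 and 2 do not overlap those numbered 3 and 4, by title number, with red circles for arrays labelled experimental, blue squares for arrays labelled control and gray lines for the mean of each pair of numbers. The vertical ranges differ between panels, from a difference of −1.27 for Lama3 to one of 0.15 for Lama4.

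The remaining 4 separated subunits differed by less. Itgam, the alpha chain of the myeloid receptor Mac-1, had 12.04 and 11.95 in experimental 1 and 2 and 11.86 and 12.20 in control 1 and 2, against 11.75 and 11.37 in experimental 3 and 4 and 11.80 and 11.58 in control 3 and 4. The nearest arrays were 0.05 apart, its second spot lay near the bottom of the scale (2.97) with a difference of −0.23, the mean of both spots differed by 0.08, and Itgb2, the beta chain of the same receptor, differed by 0.08 and overlapped. Itgb5, the beta chain of a vitronectin receptor, had 11.29 and 11.19 in experimental 1 and 2 and 11.04 and 11.08 in control 1 and 2, against 10.84 and 10.93 in experimental 3 and 4 and 10.97 and 10.77 in control 3 and 4, a difference of 0.27 from its single spot.

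Itga1, a collagen receptor chain of smooth muscle and stroma, had 8.52 and 8.62 in experimental 1 and 2 and 8.76 and 8.51 in control 1 and 2, against 8.44 and 8.33 in experimental 3 and 4 and 8.43 and 8.37 in control 3 and 4. That is a difference of 0.21, and its 4 other spots all overlapped. Lama4, the alpha chain of vascular and mesenchymal laminin, had 11.69 and 11.66 in experimental 1 and 2 and 11.66 and 11.71 in control 1 and 2, against 11.57 and 11.57 in experimental 3 and 4 and 11.58 and 11.38 in control 3 and 4. Its difference of 0.15, or 1.11-fold, was the smallest of the 8.

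The same comparison was made for the other spots of these genes. Of the 8 separated subunits 7 had further spots, 12 in all, of which 10 had the same sign as the brightest spot and 2 were themselves separated, 1 each of Lama3 and Itga9. In Itga6 bright spots disagreed. Its brightest spot (mean 12.37) had 12.49 and 12.31 in experimental 1 and 2 and 12.27 and 12.53 in control 1 and 2, against 12.31 and 12.21 in experimental 3 and 4 and 12.49 and 12.38 in control 3 and 4, a difference of 0.05. A spot of nearly the same brightness (12.33) was separated with a difference of 0.42, and the next (11.26) differed by −0.05.

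**Figure D4:**
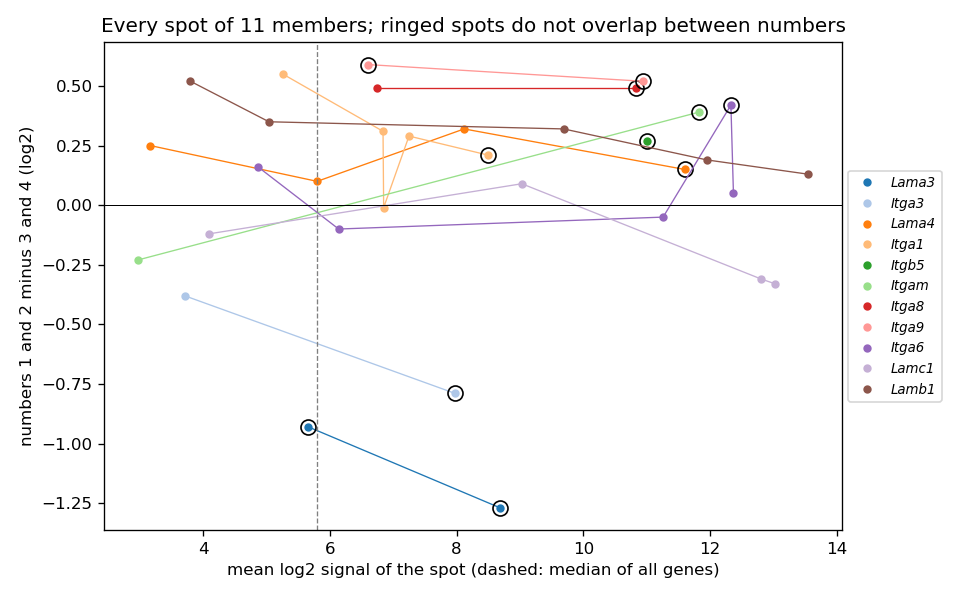
Mean log2 signal of every spot on the horizontal axis against its difference between arrays numbered 1 and 2 and those numbered 3 and 4 on the vertical axis, for the 8 separated subunits and for Itga6, Lamb1 and Lamc1, 3 members with several bright spots. Lines join the spots of a gene, rings mark spots whose arrays do not overlap, and the dashed line is the median of all genes (5.79). The 2 spots of Lama3 and the 2 of Itga9 are ringed, and only 1 of the 5 spots of Itga6 is.

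Many bright subunits hardly differed between the numbers. Itgb1 had 13.04 and 13.10 in experimental 1 and 2 and 13.01 and 13.10 in control 1 and 2, against 13.06 and 13.10 in experimental 3 and 4 and 13.17 and 12.85 in control 3 and 4, and its second spot also differed by 0.01. Itga4, the receptor chain for Vcam1 and fibronectin, had 7.88 and 8.25 in experimental 1 and 2 and 8.08 and 8.36 in control 1 and 2, against 7.99 and 8.43 in experimental 3 and 4 and 8.07 and 8.01 in control 3 and 4, a difference of 0.01. Itgav had 10.63 and 10.29 in experimental 1 and 2 and 10.67 and 10.69 in control 1 and 2, against 10.56 and 10.48 in experimental 3 and 4 and 10.49 and 10.56 in control 3 and 4, a difference of 0.05. In each of these 3 genes the arrays numbered 1 and 2 overlapped those numbered 3 and 4.

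Lamb2, a beta chain of vascular and muscle basement membranes, had 9.44 and 9.58 in experimental 1 and 2 and 9.58 and 9.37 in control 1 and 2, against 9.64 and 9.50 in experimental 3 and 4 and 9.46 and 9.48 in control 3 and 4, a difference of −0.03. Itgb4, the beta chain of the hemidesmosome, had 7.85 and 7.58 in experimental 1 and 2 and 7.98 and 7.31 in control 1 and 2, against 7.36 and 7.71 in experimental 3 and 4 and 7.75 and 7.66 in control 3 and 4. Control 1 was the highest of these arrays and control 2 the lowest. Lamc1, the common gamma chain, differed by −0.33 with its brightest spot and by −0.31 with the next, and the numbers overlapped in both spots.

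**Figure D5:**
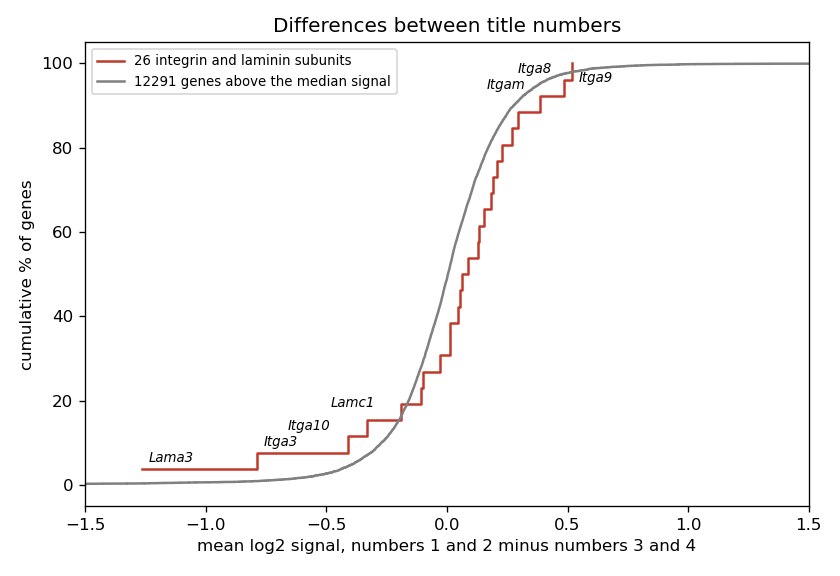
Cumulative share of genes by their difference in mean log2 signal, numbers 1 and 2 minus numbers 3 and 4, for the 26 subunits above the median signal (red) and all 12291 genes above it (gray). Lama3 (−1.27) and Itga3 (−0.79) extend the lower tail of the red line, and Itga9 (0.52) and Itga8 (0.49) lie at its upper end.

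Of the remaining subunits, those for fibronectin and latent Tgfb overlapped in both contrasts. Itga5, the fibronectin receptor chain, differed by 0.15 between the labelled groups and by −0.19 between the numbers, and Itgb3, a beta chain of the alpha v pairs, by −0.02 and 0.18. The Tgfb-activating beta chains Itgb6 and Itgb8 differed by 0.03 and −0.03 between the labelled groups and by −0.11 and 0.13 between the numbers. Itga7 and Lama2, a receptor chain and a laminin chain known from muscle, differed by −0.24 and 0.01 between the labelled groups and by 0.23 and 0.09 between the numbers.

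The other collagen-binding and leukocyte chains had weak signals. Itga2, a collagen-binding chain of epithelia and platelets, had 4.72, 6.07, 4.96 and 5.67 in experimental 1 to 4, against 5.79, 5.66, 5.71 and 5.80 in control 1 to 4, with experimental 1 and 3 low and experimental 2 the highest. The difference was −0.39 (interval −1.02 to 0.25). Itga11, a collagen receptor chain of fibroblasts, differed by −0.02 between the labelled groups. The leukocyte chains Itgae and Itgb7, which pair with each other, differed by 0.14 and 0.30 between the labelled groups and by 0.41 and −0.35 between the numbers.

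By role, the largest spread was in the laminin alpha chains, from −1.27 for Lama3 to 0.30 for Lama1. The 4 laminin-binding integrin chains ran from −0.79 for Itga3 to 0.23 for Itga7, the 4 collagen-binding chains from −0.41 for Itga10 to 0.21 for Itga1, and the 8 RGD-binding chains from −0.19 for Itga5 to 0.49 for Itga8. The 3 beta laminins stayed between −0.03 and 0.19. The 7 leukocyte chains ran from −0.50 for Itgal to 0.55 for Itgax, both at low signal, and of these only Itgam lay above the median.

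Markers of the cells that carry these receptors moved with the number too, and in bulk tissue fewer cells of a type and less RNA per cell cannot be told apart. The mean of 10 pan-epithelial markers was 10.31 to 10.56 in numbers 1 and 2, against 10.70 to 10.82 in numbers 3 and 4, with 4 of the 10 separated and all 4 lower. The direction was that of Lama3 and Itga3, with smaller differences (Nkx2-1 −0.76, Cldn6 −0.67, Cldn7 −0.61 and Epcam −0.33). Krt8, Krt18 and Krt19 lay within 0.11 of zero. All 8 distal tip markers, Etv4 and Etv5 among them, were lower. The mean of 8 smooth muscle markers was 10.03 to 10.35 in numbers 1 and 2, against 9.67 to 9.84 in numbers 3 and 4, with 6 of 8 separated and higher, the direction of Itga8, Itga9 and Itga1. Of 10 mesenchyme markers 3 were higher and 1 lower. Of 10 leukocyte and 10 endothelial markers, all above the median signal, 1 each was separated (Csf1r and Esam, both higher), which is a lower share than the 17.3% of all genes above the median. Their part in the differences of the subunits was not tested.

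Other markers differed on a single array, or between the labels without any of them passing. The mean of 10 basal and squamous markers was 7.70 in control 1 and 5.64 to 5.95 on every other array, with Krt5 at 8.66 in control 1 and 2.73 to 4.04 elsewhere. Trp63 (10.01 in control 1) lay within the range of the other arrays, and Ngfr was higher in control 2 (6.98) than in control 1 (6.87). Itgb4 was highest in that array (7.98), whereas Lama3 was lowest there (7.60). The mean of 6 cardiac markers was 8.52 to 9.05 in the arrays labelled experimental, against 9.01 to 9.27 in those labelled control, so these means overlapped. Singly, Myh6 (10.96 to 11.34, against 11.64 to 11.74) and Myl7 (10.99 to 11.42, against 11.57 to 11.68) did not overlap between the labelled groups. Neither did Tnnt2 (8.92 to 9.22, against 9.44 to 9.97) and Myl4 (10.22 to 10.69, against 10.81 to 11.21). Actn2 and the weak Nppa overlapped, and 1.9% of all genes separated the labelled groups. Of the 6, 5 were lower in the arrays labelled experimental and 1, Nppa, was higher (0.37). The lung epithelial factor Nkx2-1 was high on all arrays (10.39 to 11.38).

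Around the subunits, 0 genes of 4 lists of partners passed either test, and the number contrast separated some of each, where it separated 10.6% of all genes and 17.3% of those above the median. Among 21 other basement membrane genes 1 was lower and 2 higher in numbers 1 and 2 (14.3% in all, 18 of the 21 being above the median). Ntn1, a netrin of laminin-like structure, was 6.47 to 6.80 in numbers 1 and 2, against 4.29 to 5.85 in numbers 3 and 4, a difference of 1.52. Col18a1, a basement membrane collagen, differed by −0.48 (12.44 to 12.77, against 12.99 to 13.17). The weak Col4a3 (−0.55) and Ntn4 (0.52) overlapped.

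Of 22 measured integrin ligands 2 were lower and 5 higher in numbers 1 and 2 (31.8%). Egfl6, a secreted protein with an RGD motif, was 5.27 to 5.66 in numbers 1 and 2, against 6.95 to 7.91 in numbers 3 and 4, a difference of −1.92. Fn1, fibronectin, differed by 0.38 and the matricellular Ccn2 by 0.55, both separated. Spp1, osteopontin, differed by 0.53 and overlapped. Between the labels it had 4.10, 4.34, 4.16 and 4.00 in experimental 1 to 4, against 5.80, 5.68, 4.37 and 5.26 in control 1 to 4, a difference of −1.13 with an unadjusted p of 0.0043 and a limma adjusted p of 1.0.

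Of 27 adaptors that join integrins to actin or signal from them, 1 was lower and 6 higher in numbers 1 and 2 (25.9%). Lims2, of the Ilk complex, differed by 0.73 and the docking protein Nedd9 by 0.68, both separated, while Parvb (0.45) and Src (−0.44) overlapped. Of 11 hemidesmosome genes and other laminin receptors 2 were lower and 1 higher (27.3%). Sdc4, a heparan sulfate proteoglycan that acts with integrins at fibronectin, was 7.19 to 8.0 in numbers 1 and 2, against 8.80 to 9.43 in numbers 3 and 4, a difference of −1.49. Col17a1 (1.08) and Krt5 (0.90) overlapped and were highest in control 1, at 7.43 and 8.66, and Bcam, a receptor for Lama5, differed by −0.47 and overlapped.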

How the data were processed

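RNA of 8 E14.5 lung lobes was hybridized to one-colour Agilent arrays. The authors extracted spot signals with Mapix 6.5.0 and, in R 3.3.2 with limma 3.30.13, corrected background by normexp on negative control spots (offset 1), took logs and applied quantile normalization across the arrays. What they deposited is this log2 signal (62976 spots per array, median 4.43 on each, range 2.00 to 16.00). No scanner files were used, detection above background was not called, and signals near either end are compressed. Base 2 was read from the values. Quantile normalization gives all arrays 1 distribution, which would hide a shift of all genes. The number of arrays limits the precision, and pairs of arrays correlated at 0.986 to 0.992.

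Spots were named from the platform annotation (1 symbol for 43941, none for 19035), with 1424 symbols updated through RefSeq accessions, and 2 spots that lacked a value were left out. Each gene took its brightest spot. Groups and numbers came from the sample titles. Fits used limma 3.58.1 in R 4.3.3 over 24583 genes without a filter, and were tested on simulated data. The members, lists and alternatives were chosen with earlier results of these data known. Values per array are given for the 4 members with the smallest p, members above the median signal that separate the numbers, the 6 with the smallest number difference, members whose groups do not overlap and members whose spots disagree, and in each partner list up to 4 genes with the largest number difference are named. Genes named outside this rule were chosen after their values were seen.

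Arrays of 1 number deviated together from the means of their groups, with correlations of 0.109, 0.146, 0.124 and 0.117 across genes for numbers 1 to 4, and each array matched its own number best. The numbers, from the titles, were therefore used as a block in an alternative fit.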

Additional observations from a re-analysis of the deposited data

Results flagged for a closer look

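Each of the 36 subunits was searched for a single array far from the other 3 of its labelled group, 72 searches in all, of which chance would be expected to pick about 1 in 20. The search picked 2. Itga2b, the platelet integrin alpha chain, read 4.01 in control 4, where the remaining arrays labelled control read 3.79 to 3.82. Itgad, a leukocyte alpha chain, read 3.35 in control 3 and 2.65 to 2.77 in the others. Both are signals below the median of all genes.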

How the results depend on the processing

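The label comparison called 0 genes and 0 subunits with the replicate number as a block, with the methods' t-test after Benjamini-Hochberg adjustment, with the mean of all spots, with genes above the median signal alone, with signals under 4 set to 4, with cyclic loess and without any 1 array. At an unadjusted p under 0.05 it called 876 genes and 1 subunit. The replicate block changed no call, and its smallest adjusted p among the subunits was 0.999.

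The number term called 7 genes, 11 with the mean of all spots, 84 of 12291 with genes above the median alone, and 0 to 0 without any 1 array, and 0 subunits throughout. The causes were not tested. Subunits that separate numbers 1 and 2 from 3 and 4 numbered 4 with the mean of all spots (11.1%, against 8.94% of all genes), against 8, and 8 to 10 without any 1 array, where 13.5 to 15.5% of all genes did so. Subunits of 1 sign in all 4 pairs were 1 when genes below the median were left out, against 3. Of 218 repeated values of named subunits, 216 kept their direction and call or moved by less than the spread between arrays, that of Lamb3 between the labels reversed to −0.04 and that of Itgam between the numbers moved to 0.08, both with the mean of all spots. Many of the 218 could not change, since the block, the signal filter and, for bright genes, the floor of 4 leave a difference as it is. Label differences counted as kept by sign and call alone, also Itgal at 0.18 (mean of all spots) and Itgax at −0.13 (floor of 4). Over these repeats Lama3 ran from −1.41 to −1.10, Itga3 from −0.88 to −0.58, Itga8 from 0.42 to 0.53 and Itga9 from 0.47 to 0.56.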
